A study of Mus musculus with 6 samples.

Results

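The miR-99/100 and miR-125 families are 2 groups of microRNAs that lie beside let-7 genes in the mouse genome. Their 5 members on the array were taken by name, as the probes for mmu-miR-99a, mmu-miR-99b, mmu-miR-100, mmu-miR-125a and mmu-miR-125b (written below without the species prefix), out of 334 mouse microRNA probes. They were followed in embryoid bodies, clumps of embryonic stem cells grown in suspension so that differentiation starts, taken at day 7. The stem cells were of strain 129S7/SvEv Brd-Hprt b-m2 and, in all groups, carried human BRCA1, a DNA repair protein. It had the change R1699Q (RQ) in 2 samples, the change M1652I (MI) in 2 samples and the wild-type form (WT) in 2 samples. The labels do not say whether the cell lines were single clones, or whether replicates came from separate cultures, so p-values reflect only how far these samples differ from each other, and that spread may be technical. A gelatin step had cleared the feeder cells beforehand, per the labels' protocols. In such bulk samples, fewer cells that make a microRNA and less of it per cell cannot be told apart.

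MicroRNAs pair with target messenger RNAs mainly through the seed, the short stretch that starts at their second base, and lower the output of those targets. The miR-125 family is the vertebrate counterpart of lin-4, found in worms as a regulator of developmental timing along with let-7. The miR-99/100 family shares its clusters and has mTOR among its known targets in mammalian cells. Members of both families, like let-7, are typical of differentiated tissues, whereas the miR-290 and miR-302 clusters mark embryonic stem cells.

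The mature sequences are shown because the seed sorts the members into their families and because the probes must tell near-identical members apart. They come from RefSeq with the GRCm38.p6 build, where all 5 names matched, and run 5′ to 3′ with the seed, bases 2 to 8, in capitals.
miR-99a: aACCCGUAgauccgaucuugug
miR-99b: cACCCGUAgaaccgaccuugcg
miR-100: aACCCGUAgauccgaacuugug
miR-125a: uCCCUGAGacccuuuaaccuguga
miR-125b: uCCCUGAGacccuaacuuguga
The first 3 share the seed ACCCGUA and the other 2 share CCCUGAG. Over 22 bases, miR-99a and miR-100 differ at 1 position, U16A, counted from 1 at the 5′ end of miR-99a, and miR-99a and miR-99b differ at 4, which are A1C, U11A, U16C and U21C. miR-125a has 24 bases and miR-125b has 22, and the first 13 bases of both are identical.

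The genes lie in 3 clusters, all on the plus strand of GRCm38.p6. On chromosome 9, Mir100 (mature sequence at chr9:41531437-41531458), Mirlet7a-2 and Mir125b-1 (chr9:41581940-41581961) span 50.6 kb. On chromosome 16, Mir99a (chr16:77598940-77598961), Mirlet7c-1 and Mir125b-2 (chr16:77646279-77646300) span 47.4 kb. The cluster on chromosome 17 is compact, with Mir99b (chr17:17830194-17830215), Mirlet7e and Mir125a (chr17:17830817-17830840) within 0.7 kb. The array has 1 probe for mature miR-125b, so its 2 loci were measured together.

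The probes that separate miR-99a from miR-100 are shown because the 2 microRNAs differ by a single base. Each has 60 bases, and capitals mark the part complementary to the microRNA.
miR-99a probe: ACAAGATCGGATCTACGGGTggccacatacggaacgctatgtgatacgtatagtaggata
miR-100 probe: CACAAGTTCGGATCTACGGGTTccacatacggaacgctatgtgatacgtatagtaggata
The first pairs with 20 bases of miR-99a, from base 2 to base 21, and the second with all 22 bases of miR-100. How much each also bound the other microRNA was not tested.

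Each array carried 2 dyes. By the labels, Cy3 marked the group's own RNA and Cy5 marked RNA called WT embryoid body on every array, and dyes were not swapped. The Cy5 RNA went against that label. The 9 stem cell markers on the array, of 13 listed, summed to a net Cy3 signal between 51754 and 87989 over the 6 arrays, all well above background there, but to a net Cy5 signal between 172 and 259, with 2 of the 9 above background. In Cy5, 5 blood markers summed to between 70955 and 72617, against 972 to 1235 in Cy3. Most of that Cy5 sum was miR-451, which averaged 65229 on WT arrays, followed by miR-142-5p at 5123. The Cy3 signal held the stem cell markers of the label in every group, so the Cy5 channel is used below as a shared denominator and not as a WT sample. All 6 arrays were on 1 slide, with the WT arrays together in one row and both mutants in the other, so row and mutation cannot be told apart in comparisons with WT. Background also differed: the 77 negative control spots averaged a net Cy3 signal of 93.0 and 103 on RQ arrays and 43.8 and 59.4 on MI arrays, against 59.4 and 43.8 on WT arrays.

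Signal is first given as net intensity, the spot mean minus its local background, averaged over the spots of a probe that the scanner had not marked as outliers, in arbitrary linear units and without normalization. Values are in the order of replicates 1 and 2.

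miR-125a, the member in the compact cluster, had a net Cy3 of 437 and 417 in RQ embryoid bodies, 408 and 472 in MI and 503 and 467 in WT. Both RQ values lay below both WT values, while MI overlapped WT. Averages were 427 ± 14.0 in RQ, 440 ± 45.4 in MI and 485 ± 25.0 in WT (SD, n = 2 each). RQ stood at 0.881 times WT and MI at 0.908 times WT. These signals were 4.06 to 10.7 times the negative control mean of their array, lowest on the RQ arrays.

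miR-125b had a net Cy3 of 281 and 275 in RQ, 242 and 281 in MI and 371 and 306 in WT. Both mutants lay below WT without overlap, and RQ overlapped MI. Averages were 278 ± 4.24 in RQ, 261 ± 27.9 in MI and 339 ± 45.6 in WT (SD, n = 2 each), which put RQ at 0.821 and MI at 0.772 times WT. It was the only member whose net Cy3 was lower than WT without overlap in both mutants. Of the 294 probes tested, 6.8% were lower in RQ than in WT without overlap and 19.7% were lower in MI.

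miR-99a had a net Cy3 of 91.2 and 112 in RQ, 77.5 and 85.0 in MI and 69.9 and 64.8 in WT. The 3 groups did not overlap, with RQ highest and WT lowest. Of the 294 probes, 63.3% were higher in RQ than in WT without overlap, 36.4% were higher in MI than in WT and 72.1% were higher in RQ than in MI. RQ stood at 1.51 times WT and MI at 1.21 times WT. The RQ signals were 0.981 and 1.09 times the negative control mean of their own arrays, against 1.77 and 1.43 in MI and 1.18 and 1.48 in WT, so relative to that mean the order of RQ and WT was turned round. The mean lay above the median of those spots, which was 54.0 and 61.0 on RQ arrays. Of the 77 control spots, 9 and 5 reached miR-99a in RQ, against 6 and 4 in WT. In RQ, 4 and 3 of the 4 miR-99a spots were marked well above background.

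miR-99b, which differs from miR-99a at 4 positions and is encoded beside miR-125a, had a net Cy3 of 116 and 127 in RQ, 107 and 108 in MI and 109 and 92.2 in WT. RQ exceeded WT without overlap, at 1.21 times its mean, and MI overlapped WT at 1.07 times. Relative to the negative control mean it stood at 1.25 and 1.24 in RQ, 2.45 and 1.82 in MI and 1.84 and 2.10 in WT. The median tested probe stood at 1.35 times WT in RQ and 1.06 times WT in MI.

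miR-100 had the weakest Cy3 signal relative to background. It read 92.5 and 79.2 in RQ, 57.3 and 63.3 in MI and 53.0 and 47.1 in WT, between 0.770 and 1.31 times the negative control mean. The share of its spots well above background in Cy3 passed 0.5 on 0 of 2 RQ arrays, 1 of 2 MI arrays and 1 of 2 WT arrays. Its Cy3 signal was thus not well above background in RQ and only partly so in MI and WT, so no fold is given for it, and its ratios below, fitted on the same signal, have that limit. One of its 4 spots was bright on all 6 arrays, at 126.5 and 336 in RQ, 198 and 144 in MI and 143 and 87.0 in WT, where the other 3 ranged from 40.2 to 85.0. The scanner had marked it as an outlier on 5 arrays. On RQ replicate 1 it was not marked, so the average of 92.5 there, and the ratio fitted from it, include the bright spot.

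**Figure D1:**
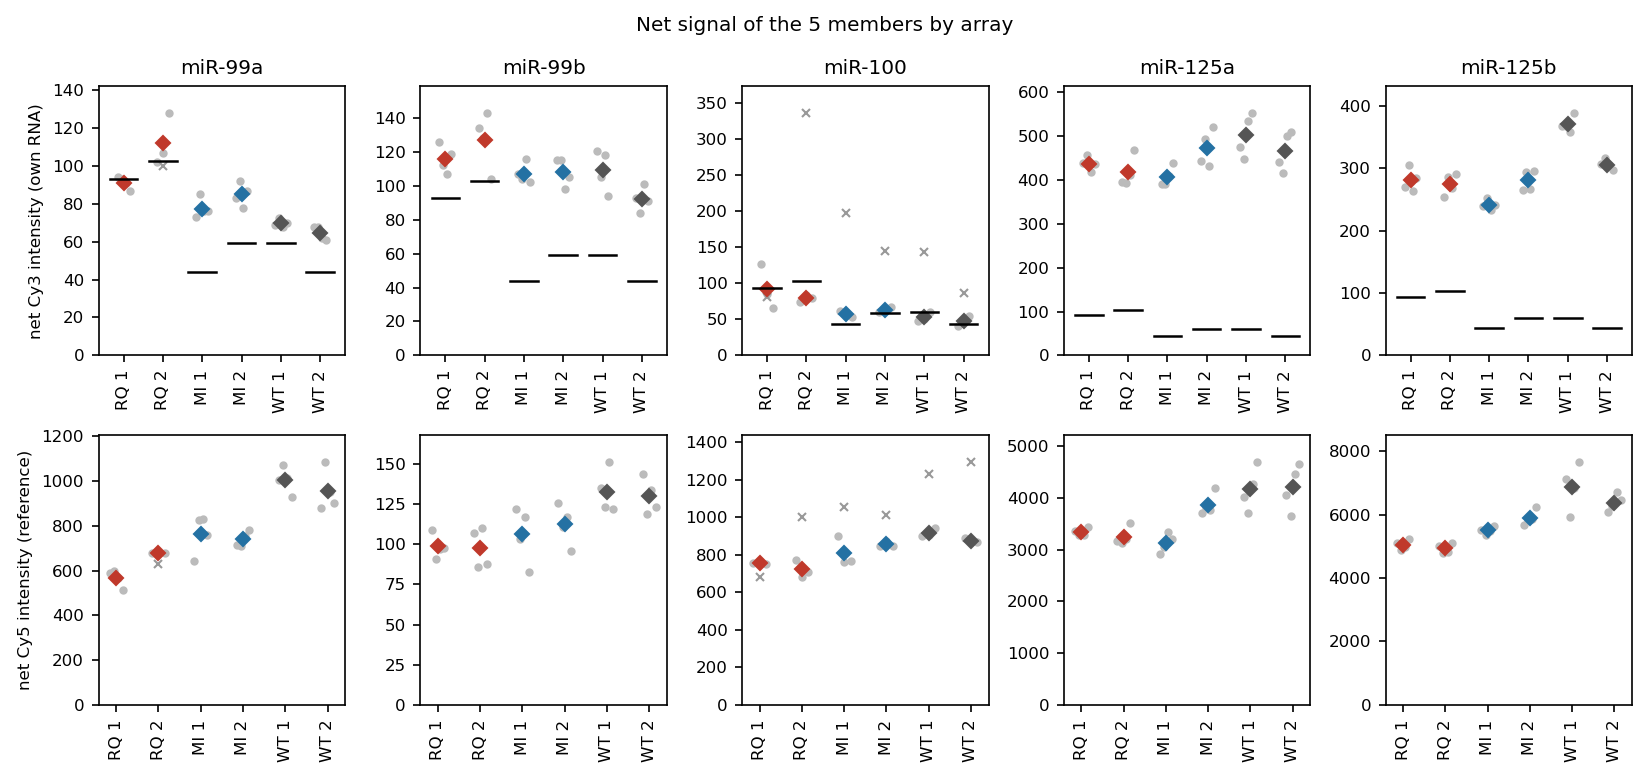
Net intensity (linear, arbitrary units) of the 5 members in Cy3 (top, own RNA) and Cy5 (bottom, shared reference) for RQ, MI and WT replicates 1 and 2. Grey dots are spots, crosses are spots marked as outliers, diamonds are array averages without them, and black lines in the top row are the mean of the 77 negative control spots. miR-99a, miR-99b and miR-100 lie near those lines in RQ, and miR-125a and miR-125b lie well above them in all groups.

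In the Cy5 reference every member was dimmer on mutant arrays, as was the median tested probe, at 0.834 times WT on RQ arrays and 0.917 times WT on MI arrays. miR-125b read 5058 and 4938 on RQ arrays and 5504 and 5907 on MI arrays, against 6885 and 6386 on WT arrays, although the labels give the same Cy5 RNA for all. RQ stood at 0.753 times WT for miR-125b, 0.787 for miR-125a, 0.635 for miR-99a, 0.748 for miR-99b and 0.828 for miR-100, and none of these overlapped. MI stood at 0.860 times WT for miR-125b, 0.835 for miR-125a, 0.768 for miR-99a, 0.833 for miR-99b and 0.931 for miR-100, also without overlap. Of all tested probes, 54.4% were lower in RQ than in WT without overlap and 41.8% were lower in MI. A ratio of Cy3 over Cy5 therefore also moves with the denominator. In a fit of Cy5 alone, quantile-normalized between arrays and chosen after seeing the data, 0 of the 5 members were called in any comparison in limma, with 2 between RQ and WT, 1 between MI and WT and 0 between RQ and MI at an unadjusted p under 0.05, and 5.1% of probes were called between RQ and WT. The largest differences of members were between RQ and WT, at -0.45 ± 0.11 for miR-99a (log2, SE, limma adjusted p = 0.075) and -0.37 ± 0.071 for miR-99b (limma adjusted p = 0.065), against -0.014 for miR-125a and -0.071 for miR-125b.

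Group differences were tested on log2 of Cy3 over Cy5, after a background correction (normexp) and an intensity-dependent centring of each array (loess). Of the 334 probes, 294 passed the filter on dim probes, all 5 members among them, and a microRNA was called at a Benjamini-Hochberg adjusted p under 0.05 over all 294 in limma. Between RQ and WT, 3 of the 5 members were called: miR-125a and miR-125b fell and miR-99a rose. Of all tested probes 21.4% were called, 7.48% higher and 13.9% lower. The median change was 0.20 for the members and 0.035 for all tested probes. Ratios that did not overlap between RQ and WT were common, with 33% of probes higher and 29.6% lower.

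The log2 ratio of miR-125b was -4.33 and -4.00 in RQ and -3.09 and -2.46 in WT. It fell by 1.39 ± 0.24 in RQ (log2, SE, limma adjusted p = 0.011), the sixth lowest change of the 294. The groups did not overlap. miR-125a had ratios of -3.14 and -2.83 in RQ and -2.02 and -1.34 in WT, again without overlap, and fell by 1.31 ± 0.24 (SE, limma adjusted p = 0.014), the ninth lowest.

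miR-99a had ratios of -3.16 and -3.28 in RQ and -3.89 and -3.60 in WT, and rose by 0.53 ± 0.14 (SE, limma adjusted p = 0.049), but with Cy3 alone the difference was -0.073. Of 15 alternatives, 4 made that call. miR-99b differed by 0.23 ± 0.12 (adjusted p = 0.204 in limma), with ratios of -0.57 and -0.54 in RQ and -0.78 and -0.79 in WT that did not overlap. miR-100 differed by 0.20 ± 0.15 (adjusted p = 0.375 in limma), and its ratios of -3.58 and -3.78 in RQ overlapped those of -3.98 and -3.78 in WT. With the background set from the negative control spots, an alternative chosen after seeing the data, miR-100 was instead called higher at 0.87 ± 0.12 (limma adjusted p = 0.016) and miR-99a at 1.07 ± 0.14 (limma adjusted p = 0.015), in a fit that called 31.6% of probes.

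For miR-125a and miR-125b, the size of the change and whether it was called depended on the scaling. The net ratio before normalization, which keeps array-wide shifts of both dyes, had the opposite sign. With each array centred on its median in place of loess, miR-125a differed by -0.15 ± 0.11 (limma adjusted p = 0.346) and miR-125b by -0.19 ± 0.094 (limma adjusted p = 0.193), and neither was called, where 22.8% of probes were. With Cy3 alone, quantile-normalized between arrays, miR-125a fell by 0.63 ± 0.11 (limma adjusted p = 0.020) and miR-125b by 0.64 ± 0.083 (limma adjusted p = 0.010), with 21.8% of probes called. With the negative control background the changes were -1.38 ± 0.38 for miR-125a and -1.35 ± 0.37 for miR-125b, and neither was called (limma adjusted p = 0.055 for both). Before any normalization, the net ratio was higher in RQ by 0.16 for miR-125a and by 0.13 for miR-125b. The median tested probe was higher in RQ in Cy3, at 1.35 times WT, and lower in Cy5, at 0.834 times WT. In net Cy3 itself both miR-125 members were lower in RQ than in WT. Without RQ replicate 1, none of the 5 members was called, with adjusted p of 0.104 for miR-125a and 0.086 for miR-125b in limma at changes of -1.15 and -1.23. That fit called 5 of the 294 probes, or 1.7%.

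The difference between loess and median centring followed brightness. For the 51 tested probes with a mean log2 intensity of at least 10, where miR-125a and miR-125b lie, the loess correction shifted RQ relative to WT by a median of -1.05. For the 146 probes between 6 and 8, where miR-99b lies, it shifted them by 0.066, and for the 97 probes between 8 and 10, with miR-99a and miR-100, by -0.067. The shift was -1.16 at miR-125a and -1.20 at miR-125b. The median change by loess over the 51 bright probes was -0.83.

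**Figure D2:**
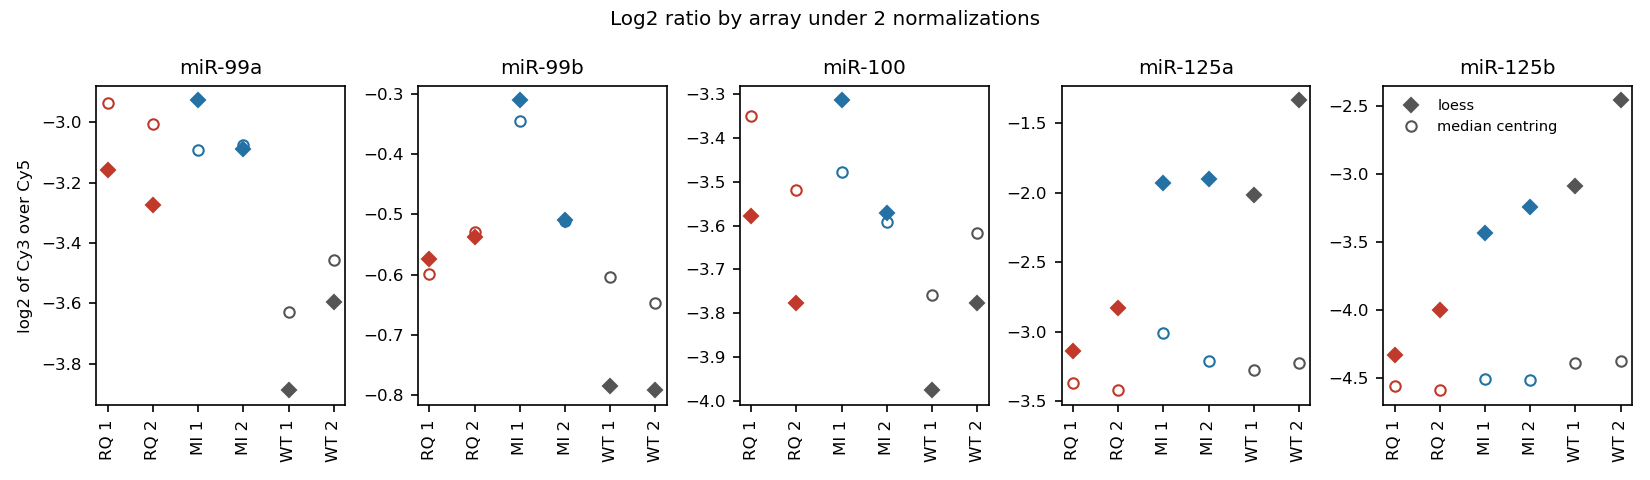
Log2 ratio of Cy3 over Cy5 for each member by array, with loess (filled diamonds) and median centring (open circles), in RQ, MI and WT replicates 1 and 2. For miR-125a and miR-125b the loess values of RQ lie below those of WT without overlap, while the median-centred values lie close together, and for miR-99a WT is lowest in both.

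**Figure D3:**
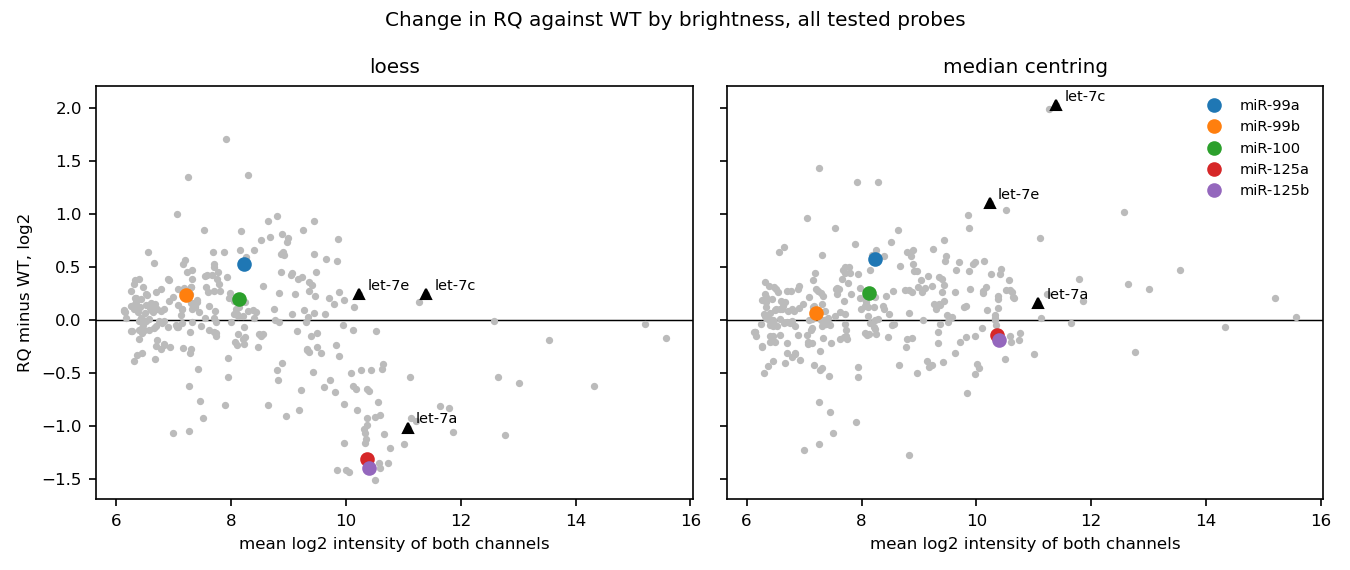
Change in RQ against WT (log2) of the 294 tested probes by mean log2 intensity of both channels, with loess (left) and median centring (right). Coloured points are the 5 members and triangles are let-7a, let-7c and let-7e. miR-125a and miR-125b sit at -1.31 and -1.39 among a group of bright probes that lie low with loess, and at -0.15 and -0.19 with median centring.

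Between MI and WT, 1 of the 5 members was called. miR-99a rose by 0.73 ± 0.14 (log2, SE, limma adjusted p = 0.026), with ratios of -2.93 and -3.09 in MI and -3.89 and -3.60 in WT that did not overlap. Of all tested probes 15.6% were called, 9.18% higher and 6.46% lower, with a median change of 0.11 over all and 0.38 over the members. The miR-99a call was also made with median centring, at 0.46 ± 0.11 (limma adjusted p = 0.030), where 12.9% of probes were called. It was not made with Cy3 alone, at 0.089 ± 0.096, or with the negative control background, at 0.11 ± 0.14. It was also lost on leaving out any array but WT replicate 2, at changes between 0.59 and 0.81, in fits that called fewer probes than the full one.

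The remaining members were not called in MI. miR-99b had ratios of -0.31 and -0.51 in MI, above both WT values, and differed by 0.38 ± 0.12 (limma adjusted p = 0.077). miR-100 had -3.31 and -3.57 in MI, also above both WT values, and differed by 0.43 ± 0.15 (limma adjusted p = 0.095). By loess, 45.6% of all tested probes were higher in MI than in WT without overlap and 22.8% were lower. With the negative control background miR-100 differed by -0.20.

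The miR-125 members showed no called change in MI. miR-125b had ratios of -3.43 and -3.24 in MI, below both WT values, and differed by -0.56 ± 0.24 (limma adjusted p = 0.145). miR-125a had -1.93 and -1.90 in MI, between the 2 WT values, and differed by -0.24 ± 0.24 (limma adjusted p = 0.484), which became 0.14 with median centring.

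RQ and MI were compared directly, since both share the WT arrays in the comparisons above. 1 of the 5 members was called: miR-125a was lower in RQ, at a change of -1.07 ± 0.24 (log2, SE, limma adjusted p = 0.040), with no overlap between -3.14 and -2.83 in RQ and -1.93 and -1.90 in MI. Of all tested probes 10.9% were called, 3.06% higher and 7.82% lower, with a median of -0.10, and 44.9% were lower and 20.1% higher in RQ without overlap. The call was lost with median centring, where the difference was -0.29 ± 0.11 (limma adjusted p = 0.145). It was also lost without any single RQ or MI array, at changes between -1.22 and -0.91. Those fits, with a lone array in a group, called almost no probe at all. Net Cy3 of miR-125a overlapped between RQ and MI, at 0.970 times MI in RQ.

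miR-125b differed by -0.83 ± 0.24 between RQ and MI (limma adjusted p = 0.091), also without overlap in the ratio, and was called with Cy3 alone at -0.41 ± 0.083 (limma adjusted p = 0.036), where 12.2% of probes were called. The miR-99/100 members differed by -0.21 for miR-99a, -0.15 for miR-99b and -0.23 for miR-100, with adjusted p between 0.365 and 0.476 in limma. With the negative control background, miR-99a was instead higher in RQ by 0.96 ± 0.14 (limma adjusted p = 0.018) and miR-100 by 1.07 ± 0.12 (limma adjusted p = 0.012), in a fit that called 23.1% of probes.

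**Figure D4:**
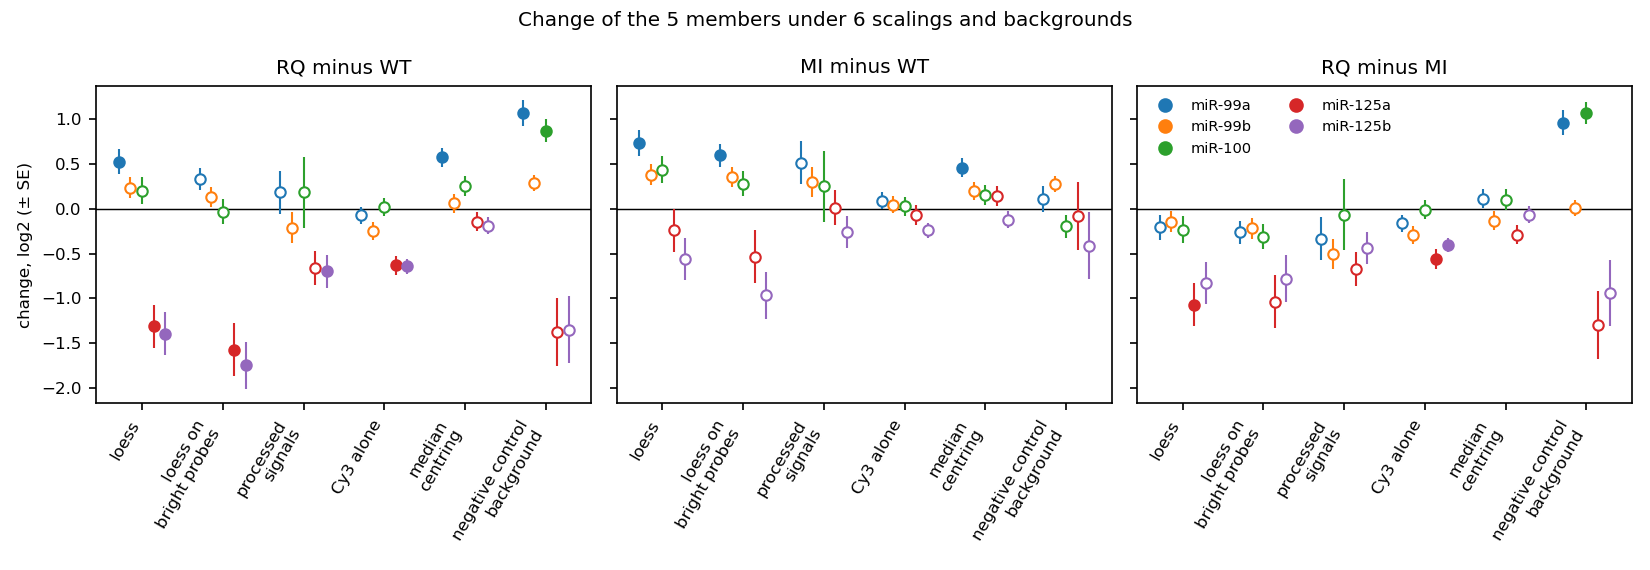
Change of each member (log2, points with SE bars) between RQ and WT, MI and WT, and RQ and MI, under 6 ways of scaling or background correction. Filled points passed a limma adjusted p of 0.05 and open points did not. miR-125a and miR-125b lie below 0 in RQ against WT under all 6, from -1.57 and -1.74 with loess on bright probes to -0.15 and -0.19 with median centring, and miR-99a changes sign with Cy3 alone.

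The let-7 genes of the same clusters are given beside their neighbours, and the difference between neighbours was not tested. let-7c, encoded between Mir99a and Mir125b-2, had a net Cy3 of 1589 and 2029 in RQ, 514 and 543 in MI and 498 and 499.5 in WT, and stood at 3.63 times WT in RQ. In the same arrays miR-99a stood at 1.51 and miR-125b at 0.821 times WT. let-7e, encoded between Mir99b and Mir125a, had 875 and 431 in RQ, 316 and 390 in MI and 276 and 273 in WT, or 2.38 times WT in RQ, beside 1.21 for miR-99b and 0.881 for miR-125a. let-7a, of the chromosome 9 cluster, had 512 and 446 in RQ, 426 and 456 in MI and 418 and 376 in WT, or 1.21 times WT in RQ. Mature let-7a and let-7c are also made from further genes, which the array does not separate.

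The let-7 changes also depended on the scaling. By loess, let-7c differed by 0.25 ± 0.28 in RQ against WT (limma adjusted p = 0.546), while it rose by 2.03 ± 0.12 with median centring and by 1.32 ± 0.21 with Cy3 alone (limma adjusted p = 0.016). let-7e differed by 0.25 ± 0.31 by loess and by 0.66 ± 0.27 with Cy3 alone (limma adjusted p = 0.134), and was called higher with median centring (limma adjusted p = 0.036). let-7a fell by 1.02 ± 0.27 by loess (limma adjusted p = 0.047), but with median centring it differed by 0.16. Of the 9 tested let-7 family probes, miR-98 included, 3 fell and 0 rose in RQ by loess (median 0.17), where 13.9% of all tested probes fell and 7.48% rose. In MI 0 were called (median -0.0025), where 15.6% of all were. Between RQ and MI, 1 was lower in RQ (median -0.29), where 7.82% of all were. At an unadjusted limma p under 0.05 there were 5 of the 9 between RQ and WT, 2 between MI and WT and 4 between RQ and MI.

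**Figure D5:**
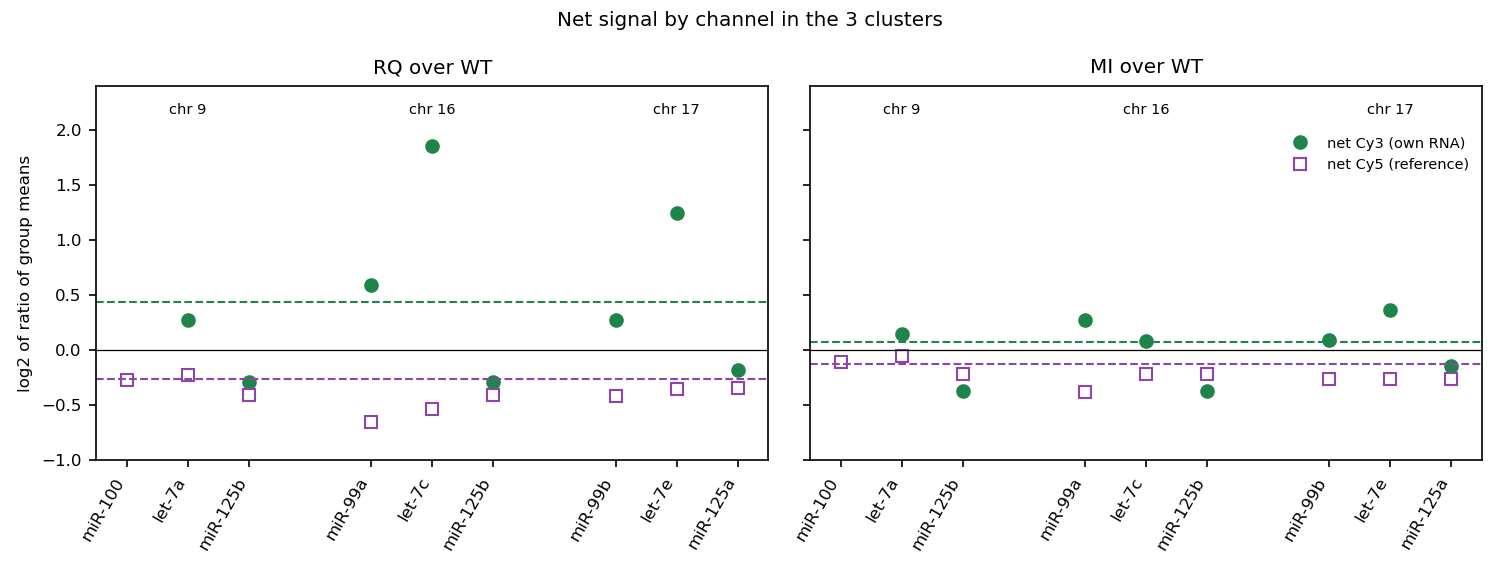
Log2 ratio of group means of net signal in RQ over WT (left) and MI over WT (right) for the microRNAs of the 3 clusters, in Cy3 (filled circles) and Cy5 (open squares), with dashed lines at the median of the 294 tested probes. miR-125b appears in 2 clusters with the same value because both loci give the same mature sequence. In RQ, Cy3 of let-7c (3.63-fold) and let-7e (2.38-fold) stands above its neighbours, and both miR-125 members lie below the Cy3 median. Cy3 of miR-100 is not drawn because it was not well above background on 4 of the 6 arrays.

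Summed net Cy3 of the blood, neural, mesenchymal, muscle and heart, and liver markers was higher on both RQ arrays than on both WT arrays. Of single probes, 63.3% were too. So was the mean of the negative control spots, at 93.0 and 103 in RQ against 59.4 and 43.8 in WT. The sums were not corrected for that background, and its part in them was not tested. By loess, 21.4% of all tested probes were called between RQ and WT, and the counts for each list are given beside its sums. The 5 neural markers tested, of which 4 were well above background in Cy3 on all arrays, summed to 1707 and 1620 in RQ, 1034 and 1196 in MI and 1118 and 1061 in WT. By loess 0 of the 5 were called in RQ against WT, at changes from -0.54 to 0.39. The 5 mesenchymal markers, all above background, summed to 3734 and 3380.5 in RQ, 2116 and 2733 in MI and 1999 and 1438 in WT, and by loess 0 rose and 1 fell in RQ (median 0.093). The 4 muscle and heart markers, 2 of them above background on all arrays, summed to 3293 and 2399 in RQ, 1950 and 2801 in MI and 1192 and 1209 in WT, and by loess 0 rose and 1 fell in RQ (median 0.030). The 1 liver marker, miR-122a, had 567 and 552 in RQ, 301 and 361 in MI and 311 and 297 in WT, and differed by -0.10 in RQ by loess. The 5 blood markers, 3 of them above background on all arrays, summed to 1235 and 1183 in RQ, 972 and 1101 in MI and 999 and 1043 in WT, and by loess 1 rose and 1 fell in RQ (median 0.10). The stem cell markers overlapped between groups, at 73142 and 70029 in RQ, 51782 and 65744 in MI and 87989 and 51754 in WT. By loess 0 of the 9 rose and 3 fell in RQ (median -0.46), where 7.48% of all tested probes rose and 13.9% fell. The part of these lists in the changes of the 5 members was not tested.

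Against the Cy5 reference, all 5 members had a loess ratio below that of the median tested probe in WT embryoid bodies, miR-99b by the least. The mean log2 ratio on WT arrays was -3.74 ± 0.21 for miR-99a, -2.78 ± 0.45 for miR-125b, -1.68 ± 0.48 for miR-125a and -0.79 ± 0.0055 for miR-99b (SD, n = 2), where the median of all tested probes was 0.088. By loess, these 4 values stood 12th, 36th, 64th and 89th from the lowest of 294. With median centring the WT means were -4.39 for miR-125b, -3.54 for miR-99a, -3.25 for miR-125a and -0.63 for miR-99b. The order of the members thus depended on the scaling. miR-100, with ratios of -3.98 and -3.78, is not ranked, since its Cy3 was well above background on 1 of the 2 WT arrays. The 9 let-7 family probes had a median of -3.28 there, and the 9 stem cell markers had 6.18.

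How the members ran together over the 6 arrays depended on the scaling. With loess ratios, Pearson's r was 0.97 between miR-125a and miR-125b, 0.92 between miR-99a and miR-99b, 0.92 between miR-99a and miR-100 and 0.88 between miR-99b and miR-100, while pairs across the families had r between -0.49 and -0.057. The points share the normalization of each array, and other scalings gave other values. Under median centring the same 4 pairs gave 0.34, 0.45, 0.88 and 0.30, and pairs across the families ran from -0.94 for miR-99a and miR-125b to 0.67 for miR-99b and miR-125a. With Cy3 alone the same 4 pairs gave 0.94, 0.87, -0.33 and -0.092, and pairs across the families ran from -0.16 for miR-100 and miR-125b to 0.91 for miR-99b and miR-125a. By loess, the 5 probes outside the families with the highest mean r with all 5 members were miR-133b (0.58), miR-30a-5p (0.57), miR-485-5p (0.57), miR-30e (0.57) and miR-203 (0.57), values too close to rank them. let-7e reached 0.33, let-7a 0.15 and let-7c -0.21.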

How the data were processed

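Total RNA from 6 samples was labelled at its 3′ end and hybridised to custom 2-colour Agilent arrays, per the labels' protocols. Agilent Feature Extraction 9.5.1.1 wrote the scanner files, per their headers. The deposited intensity values are spot means and local background medians on a linear scale, not normalized, and processed intensities that the software had corrected for background and normalized between dyes (method not given in the sources used here). Each deposited log10 value is processed Cy5 over Cy3, per the file headers. The deposited value table equalled minus that log10 ratio (largest difference 0), with a median of 0 in each column. MicroRNA names are as the array design spells them.

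Intensities were corrected by normexp (offset 50) and normalized by loess within arrays, with control and outlier spots at weight 0 and outliers (60 to 99 mouse spots per array) then removed, in limma 3.58.1 under R 4.3.3. The 4 spots of a probe were averaged. Testing required, on 2 or more arrays, that the share of a probe's spots well above background exceed 0.5 in Cy3 or Cy5. Groups were compared on all 6 arrays with lmFit, at 3 residual degrees of freedom, and eBayes, which added 2.99, with Benjamini-Hochberg adjustment over 294 probes. The number of arrays limits the precision.

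The members, marker lists and alternatives were chosen with earlier results of these data known. The text names all 5 members, let-7a, let-7c and let-7e, and the 5 other probes with the highest mean correlation with the members; the remaining names are markers of the lists. Marker lists covered stem, blood, neural, muscle, liver and mesenchymal cells. Alternatives were 4 other scalings, another offset, outliers kept, no filter on dim probes, the replicate number as a block, each array left out, and, chosen after seeing the data, a background from negative controls and Cy5 alone.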

Additional observations from a re-analysis of the deposited data

Results flagged for a closer look

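By loess, miR-125a differed between the 2 mutants: its change in RQ against WT lay below its change in MI against WT. The test of that difference, RQ minus MI, gave -1.07 ± 0.24 (log2, SE, limma adjusted p = 0.040). Both RQ arrays lay below both MI arrays in the loess ratio. The difference was -0.29 with median centring, and net Cy3 overlapped between the mutants. Before any normalization the net ratio differed by 0.038, with overlap. There the median tested probe in RQ stood at 1.32 times MI in net Cy3 and 0.906 times MI in net Cy5. The loess correction shifted RQ relative to MI by -0.78 at miR-125a and by a median of -0.72 over the 51 bright probes.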

How the results depend on the processing

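Of 225 recomputed member changes (5 members, 3 comparisons, 15 alternatives), 171 kept direction and side of the threshold. Another 35 kept direction and lost the call, 6 kept direction and gained one, and 13 changed sign, called or not. No filter, the replicate block and leaving out an array of the group not compared cannot move a change, only its p. Between RQ and WT, the loess calls were made in 4 (miR-99a), 11 (miR-125a) and 12 (miR-125b) of 15 alternatives. The miR-99a call in MI against WT was made in 7, and the miR-125a call in RQ against MI in 5. Shares of all tested probes called in the same fit are in brackets. Between RQ and WT, the members called were 1 with median centring (22.8%) and 1 with processed signals (19%), against 3 (21.4%). With the negative control background (31.6%), miR-99a and miR-100 (at 0.87) were called and miR-125a and miR-125b were not. Between MI and WT they were 0 with Cy3 alone, 0 with processed signals, 2 with offset 16 and 0 with the negative control background, against 1. Between RQ and MI they were 0 with median centring, loess on bright probes, processed signals, outlier spots kept and no filter, and 2 with Cy3 alone and with the negative control background, against 1. Over all probes, MI against WT had 15 calls with the negative control background, against 46. RQ against MI had 10 with loess on bright probes, 14 with outlier spots kept and 68 with the negative control background, against 32. Calls were 22 higher and 41 lower between RQ and WT by loess, 47 and 20 with median centring and 51 and 42 with the negative control background. Between MI and WT they were 27 and 19 by loess, 17 and 21 with median centring, 14 and 21 with loess on bright probes, 10 and 25 with Cy3 alone, 9 and 23 with processed signals and 6 and 9 with the negative control background. Between RQ and MI they were 9 and 23 by loess, 19 and 12 with median centring, 4 and 6 with loess on bright probes, 15 and 21 with Cy3 alone, 11 and 16 with processed signals and 39 and 29 with the negative control background. With processed signals the median of all tested probes was -0.26 between RQ and WT.

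Leaving out 1 array gave 5 to 60 calls and 0 to 3 members between RQ and WT, 6 to 63 and 0 to 1 between MI and WT, and 0 to 48 and 0 to 2 between RQ and MI; the lone array of a group was assumed to vary like the others. The fewest came without RQ replicate 1 between RQ and WT (5) and without MI replicate 1 between MI and WT (6).

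Signs changed between RQ and WT for miR-100 with loess on bright probes (-0.033), miR-99a with Cy3 alone (-0.073) and miR-99b with Cy3 alone (-0.25) and processed signals (-0.21). Between MI and WT they changed for miR-125a with median centring (0.14), processed signals (0.012) and without WT replicate 2 (0.10, where leaving out each array gave -0.58 to 0.10) and for miR-100 with the negative control background (-0.20). Between RQ and MI they changed with median centring for miR-99a (0.11) and miR-100 (0.10), and with the negative control background for miR-99a (0.96), miR-99b (0.012) and miR-100 (1.07). Beyond what the settings themselves fix, the cause was not tested.

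Same-numbered samples deviated together with r of 0.18 for MI and WT, 0.12 for RQ and WT and 0.04 for RQ and MI, so the numbers were not taken to pair them. With the replicate block, members called were 2 between RQ and WT, 1 between MI and WT and 2 between RQ and MI, with 59, 39 and 38 calls over all probes. Signal over background limits miR-99a, miR-99b and miR-100 in Cy3.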
